A study of Mus musculus with 2 samples.

Results

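Cells dispose of reactive aldehydes, formaldehyde among them, with a small set of enzymes, and 9 of their genes are described here: Aldh2, Adh5, Esd, Aldh9a1, Aldh7a1, Aldh3a2, Aldh1b1, Aldh1l1 and Akr1a1. They were taken from a list of names, not from measured values, and all 9 were found among the 32285 genes of the count tables. The tables came from single-cell RNA sequencing (scRNA-seq) of the testes of 1 control mouse and 1 Brca1 vKO mouse at postnatal day 7 (PD7). In the Brca1 vKO mouse (Brca1 f/- Vasa-Cre), a Cre recombinase under the germ cell promoter Vasa deletes part of the floxed allele in germ cells, and the other allele is null. Somatic cells of this mouse therefore carry 1 intact floxed allele. The genotype of the control littermate is not given further in the sources used here. Since each genotype had 1 mouse and 1 library, there was no replicate and no test between genotypes. Every interval below is a 95% interval that covers counting error only.

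Formaldehyde arises inside cells from the demethylation of histones and nucleic acids and from folate metabolism. It reacts with glutathione, and alcohol dehydrogenase 5 (ADH5) oxidises the adduct to S-formylglutathione, which S-formylglutathione hydrolase (ESD) splits into formate and glutathione. Mitochondrial ALDH2 oxidises acetaldehyde and also formaldehyde, and mice that lack both ALDH2 and ADH5 accumulate DNA damage in blood stem cells. ALDH1B1 is a mitochondrial relative of ALDH2, ALDH3A2 oxidises fatty aldehydes, ALDH7A1 acts in lysine breakdown, and ALDH9A1 oxidises aminoaldehydes. ALDH1L1 oxidises formyl-tetrahydrofolate in the folate cycle, and AKR1A1 reduces aldehydes to alcohols.

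Transcripts captured in a droplet were tagged with a barcode for the cell and an identifier for the molecule (UMI), and counts are of distinct UMIs. After the filters of at least 750 genes and at most 10% mitochondrial UMIs, 5077 control and 8712 Brca1 vKO cells were kept, with medians of 16917 and 12970.5 UMIs. Clusters were named from a list of marker genes and are called germ, Sertoli, stromal, myoid and Leydig cells here, although a name from markers means only a cell that resembles that type. These 5 classes held 4162 control and 7888 Brca1 vKO cells. The germ cells numbered 670 and 220, the Sertoli cells 2036 and 4159, the stromal cells 854 and 1986, the myoid cells 556 and 1414, and the Leydig cells 46 and 109. A further 399 control and 55 Brca1 vKO barcodes expressed germ markers at medians of 3532 and 3463 UMIs and stayed outside the germ class, whose medians were 46138 and 37374 UMIs. The libraries shared 21 cell barcode sequences. Dazl, Ddx4 and Clu were among the markers that gave the names, so their levels describe the classes and cannot check the names. Dazl and Ddx4 were at 1111 and 392 CPM in control and at 1000.1 and 367 CPM in Brca1 vKO germ cells. Dazl was at 8.29 CPM in control Sertoli cells. Clu was at 2486 and 2628 CPM in control and Brca1 vKO Sertoli cells. The RNA of Brca1 itself was at 72.6 counts per 1000000 UMIs (CPM) in control and 45.1 CPM in Brca1 vKO germ cells, and UMIs from exons outside the deletion cannot check the knockout.

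The promoters of 7 of the 9 genes were found in a RefSeq table (GRCm38.p6), and those of Adh5, Esd and Aldh1b1 are shown because these genes had 3 different patterns across cells: Adh5 was highest in Leydig and Sertoli cells, Esd was highest in germ cells, and Aldh1b1 was low in germ cells. Each is the 250 bases before the gene's start on the plus strand, at chr3:138442843-138443092, chr14:74732047-74732296 and chr4:45798772-45799021, and capitals mark GC boxes (GGGCGG, or CCGCCC on the other strand).
Adh5: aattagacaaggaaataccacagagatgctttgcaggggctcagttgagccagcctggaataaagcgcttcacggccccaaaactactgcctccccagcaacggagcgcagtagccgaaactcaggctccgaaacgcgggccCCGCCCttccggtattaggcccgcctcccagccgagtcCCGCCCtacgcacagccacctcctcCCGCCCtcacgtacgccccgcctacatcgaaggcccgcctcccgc
Esd: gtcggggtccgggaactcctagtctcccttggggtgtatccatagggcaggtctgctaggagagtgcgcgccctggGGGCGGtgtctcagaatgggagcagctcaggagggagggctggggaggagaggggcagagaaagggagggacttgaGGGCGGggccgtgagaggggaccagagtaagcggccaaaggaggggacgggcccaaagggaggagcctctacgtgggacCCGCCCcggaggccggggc
Aldh1b1: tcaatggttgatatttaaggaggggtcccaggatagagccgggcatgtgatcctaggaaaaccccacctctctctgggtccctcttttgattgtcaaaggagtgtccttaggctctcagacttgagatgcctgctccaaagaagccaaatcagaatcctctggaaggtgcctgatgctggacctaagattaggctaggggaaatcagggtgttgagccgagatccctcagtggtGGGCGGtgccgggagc
The Adh5 and Esd windows held 21 and 13 CpG and 3 GC boxes each, whereas the Aldh1b1 window held 4 CpG and 1 GC box. For comparison, the median over 32851 promoters was 6 CpG, and 32.7% of them held a GC box. None of the 3 windows held the letters CCAAT or ATTGG, present in 33.8% of promoters, or the letters AAGGTCA or TGACCTT, a site known for the Leydig and Sertoli cell factor NR5A1, present in 4.08%. These matches describe letters and are not evidence of binding.

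On GRCm38, Aldh2 lies at chr5:121566027-121593824 (minus strand), Adh5 at chr3:138443093-138455499 (plus), Esd at chr14:74732297-74750765 (plus), Aldh9a1 at chr1:167349991-167368532 (plus) and Aldh3a2 at chr11:61223417-61267464 (minus). Aldh1b1 lies at chr4:45799022-45804604 (plus), Akr1a1 on the same chromosome at chr4:116636510-116651680 (minus), Aldh1l1 at chr6:90486427-90600203 (plus), and Aldh7a1 on chromosome 18. UMIs were counted over each gene as a whole, so no value below belongs to a single exon or isoform.

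In germ cells, Esd was the most abundant of the 9 transcripts. It stood at 249 CPM (interval 243 to 254, 8154 UMIs) in the control and 219 CPM (210 to 229, 1950 UMIs) in the Brca1 vKO library. Akr1a1 was next, at 132 CPM in the control and 158 CPM in the Brca1 vKO library, and then Adh5, at 99.6 and 101 CPM. These 3 enzymes together supplied 73.2% (72.6 to 73.8) of the UMIs of all 9 in control and 71.2% in Brca1 vKO germ cells. Aldh7a1 followed at 66.5 and 77.3 CPM. Aldh2 reached only 48.8 CPM (46.4 to 51.3) and 71.0 CPM (65.6 to 76.8), and Aldh9a1 was at 46.2 and 33.4 CPM. Of the UMIs of Aldh2 and Aldh9a1 together, Aldh2 held 51.4% (49.6 to 53.2) in the control, so that the pair had no clear order there. At the bottom were Aldh3a2 with 9.67 and 7.31 CPM, Aldh1b1 with 2.87 and 3.15 CPM, and Aldh1l1 with 1.98 and 1.24 CPM, and of the UMIs of the last pair Aldh1b1 held 59.1% (51.1 to 66.8) in the control and 71.8% (55.1 to 85.0) in the Brca1 vKO library.

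UMIs are not divided by transcript length, and whether the assay read the 3' or the 5' end is not given in the sources used here. Per kilobase of the longest transcript, the control germ cells had the same first 3 enzymes, with Esd at 125, Akr1a1 at 93.0 and Adh5 at 62.1 CPM per kilobase. In Brca1 vKO germ cells Akr1a1 and Esd were close together on that scale, at 112 and 110.2 CPM per kilobase. Aldh2, whose longest transcript has 3867 bases, stood at 12.6 and 18.4 CPM per kilobase in germ cells. The count of Esd is uncertain in one respect: the last 500 bases of its transcripts match 9 processed pseudogenes with at least 95% identity. None of the 9 pseudogenes is a gene of the count tables, and how reads that fit several of these places were counted was not tested. In the same search of the other 8 members, only Aldh1l1 matched another gene, the overlapping antisense gene Gm15756, so its low counts are uncertain too.

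Somatic cells held a different mixture. In Sertoli cells, which nurse the germ cells, Akr1a1 was highest by UMIs at 244 CPM in the control and 226 CPM in the Brca1 vKO library. Aldh2 was close behind at 222 and 219 CPM, Esd was at 187 and 176 CPM, and Adh5 was at 172 and 187 CPM. In stromal cells Aldh2 and Akr1a1 led together, at 216 and 239 CPM in the control and at 245 and 240.1 CPM in the Brca1 vKO library, where their intervals overlapped. Myoid cells, the contractile cells around the tubules, had 222 CPM of Aldh2 and 246 CPM of Akr1a1 in the control, against 266 and 222 CPM in the Brca1 vKO library. In Leydig cells, which make androgens, Aldh2 was the first enzyme by UMIs, at 390.3 CPM (354 to 430) and 324 CPM (301 to 347). Per kilobase, Akr1a1 was first in all 4 somatic classes of both libraries, at 156 to 184 CPM per kilobase. The lead of Aldh2 in Leydig cells is one of numbers of molecules, which is what UMIs count.

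**Figure D1:**
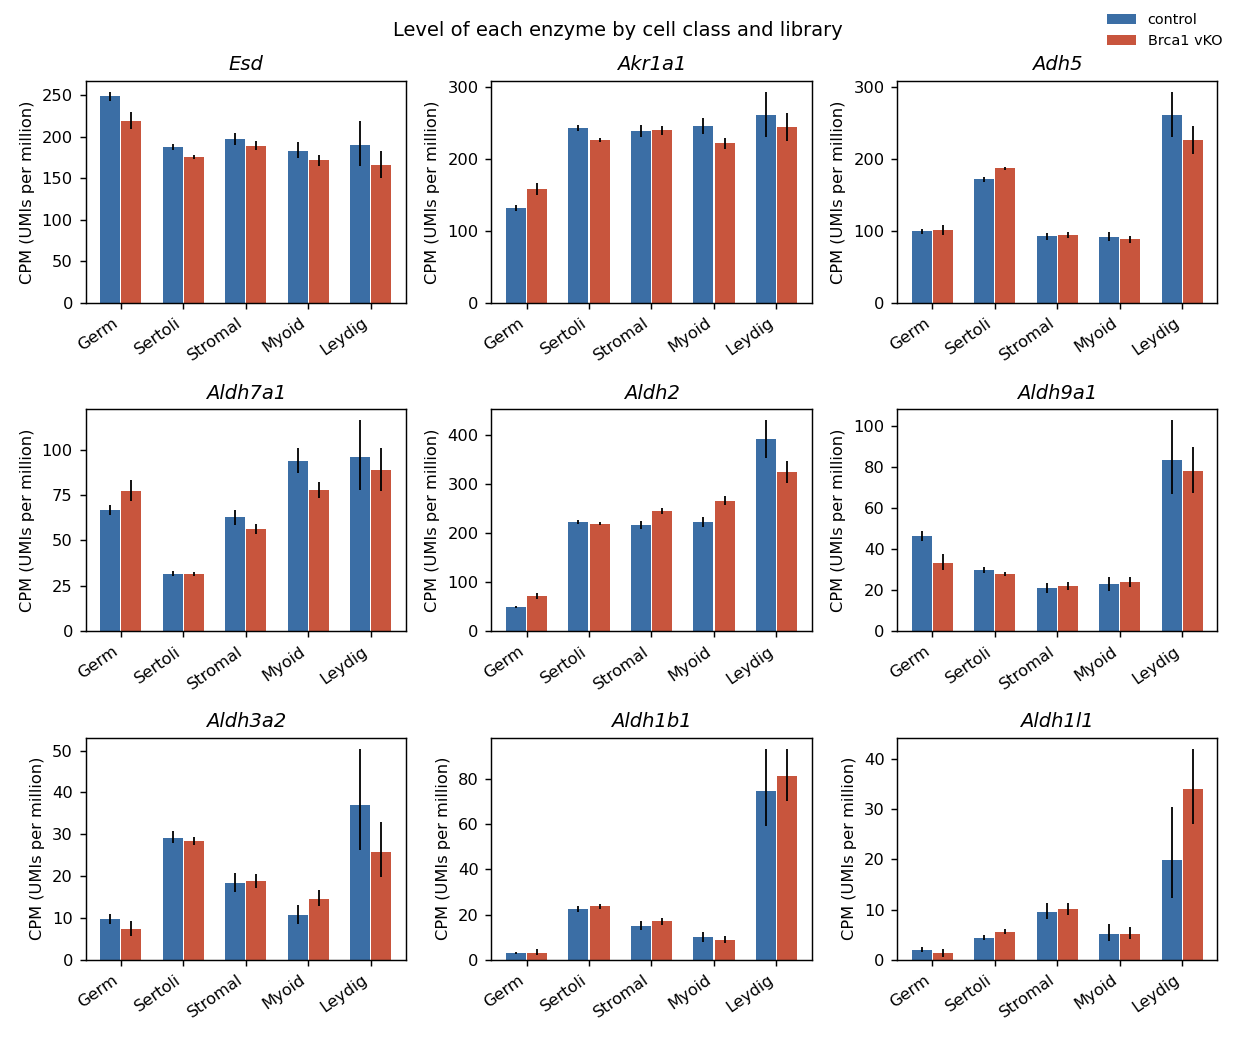
Level of each of the 9 enzymes (CPM, linear axes from 0) in 5 cell classes, with control and Brca1 vKO values side by side and bars for 95% Poisson counting intervals. Aldh2, Aldh1b1, Akr1a1, Aldh3a2 and Aldh1l1 were lowest in germ cells, although the Aldh3a2 intervals of control germ and myoid cells overlapped. Esd was highest in germ cells, and the wide bars of the Leydig cells reflect 46 and 109 cells.

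ADH5 and ESD act in sequence, and the share of the enzyme UMIs from these genes differed between classes. Adh5 and Esd together gave 53.1% (52.4 to 53.7) of the UMIs of the 9 genes in control and 47.6% (46.4 to 48.9) in Brca1 vKO germ cells. The same share was 38.1% and 39.2% in Sertoli cells, 33.2% and 31.7% in stromal cells, 31.1% and 29.6% in myoid cells, and 31.9% and 30.9% in Leydig cells. The higher share in germ cells came from Esd, which alone gave 37.9% and 32.6% there against 19.9% and 19.0% in Sertoli cells. Adh5 alone gave 15.2% and 15.0% in germ cells. That was below its 18.3% and 20.2% in Sertoli cells and 18.5% and 17.8% in Leydig cells, and above its 10.0% to 10.6% in stromal and myoid cells. Aldh2 had a profile opposite to that of Esd: it supplied 7.43% and 10.6% in germ cells but 23.5% to 30.3% in the 4 somatic classes. There were 2.04 Adh5 UMIs (1.92 to 2.17) for each Aldh2 UMI in control germ cells and 1.42 (1.28 to 1.57) in Brca1 vKO germ cells. By UMIs, Aldh2 was the more abundant of this pair in each somatic class, with ratios between 0.331 in Brca1 vKO myoid cells and 0.854 in Brca1 vKO Sertoli cells. The longest Aldh2 transcript exceeds that of Adh5, 3867 against 1604 bases. Division by length, which does not correct the counts, turned the direction in some classes. Per kilobase, Adh5 was above Aldh2 in Sertoli cells (107 against 57.3 CPM per kilobase in the control) and in Leydig cells (163 against 100.9) of both libraries. In stromal cells Adh5 and Aldh2 were at 57.6 and 55.9 CPM per kilobase in the control and at 58.8 and 63.4 in the Brca1 vKO library. In myoid cells they were at 57.40 and 57.48 in the control and at 54.9 and 68.8 in the Brca1 vKO library.

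**Figure D2:**
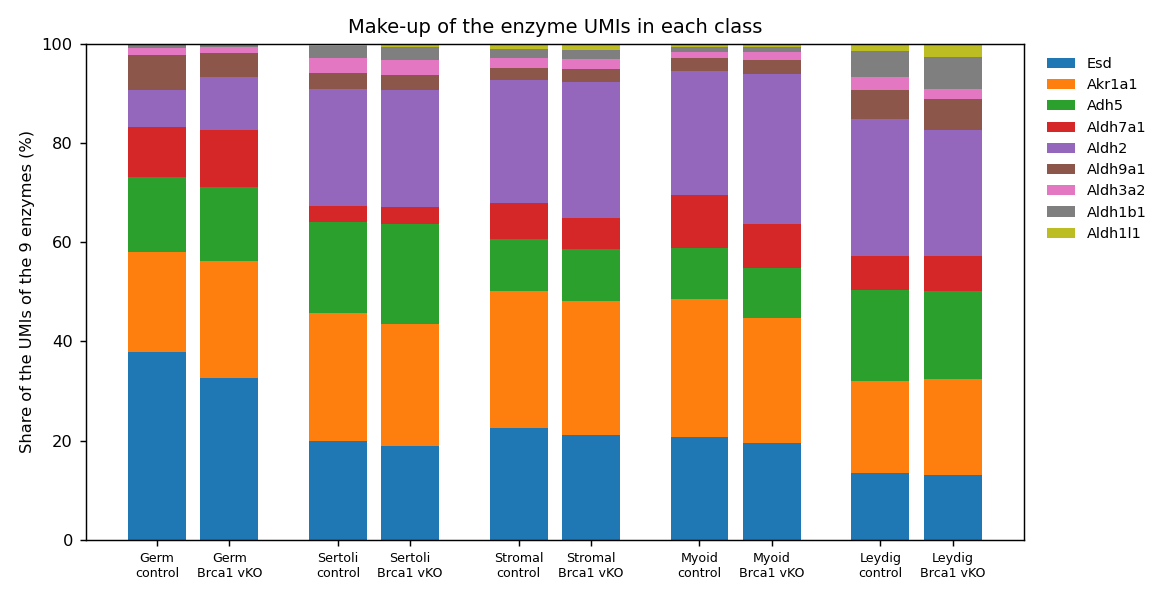
Share of the UMIs of the 9 enzymes (percent) that each enzyme supplied, as stacked bars for each cell class and library. Esd took 37.9% and 32.6% in germ cells, more than any other enzyme there, while Aldh2 took 7.43% and 10.6%.

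Of all the Aldh2 UMIs in the control library, Sertoli cells held 59.8% and germ cells 7.95%, although germ cells held 27.7% of all UMIs. Germ cells held larger parts of Aldh9a1, Aldh7a1 and Esd, at 38.1%, 36.2% and 32.7%. In the Brca1 vKO library germ cells held 5.45% of all UMIs, and their parts were 1.75% of Aldh2, 9.69% of Aldh7a1 and 6.64% of Esd. These parts depend on how many cells of each class were loaded, and more Brca1 vKO cells were loaded by design. Among the 5 classes, the summed level of the 9 enzymes was lowest in germ cells. It was 656 CPM (648 to 665) in the control and 672 CPM (655 to 689) in the Brca1 vKO library. This holds for the germ class only, since the low-UMI germ barcodes outside it were at 941 CPM (900 to 984) and 952 CPM (846 to 1068). In the other classes the sum was higher than in the germ class. It was 942 and 925 CPM in Sertoli cells, 871 and 892 CPM in stromal cells, 886 and 878 CPM in myoid cells, and 1414 and 1268 CPM in Leydig cells.

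Germ and Sertoli cells were then compared within each library. Differences are called past the fold when log2 of the ratio, with 10 CPM added to each level, exceeds 2-fold and the gene has at least 100 UMIs. Aldh2 in germ cells was at 0.220 times (0.209 to 0.232) its Sertoli level in the control and 0.324 times (0.299 to 0.351) in the Brca1 vKO library. Aldh1b1 was 0.127 and 0.133 of its Sertoli level. In the control these 2 of the 9 enzymes were past 2-fold lower, beside 11.5% of all genes tested. In the Brca1 vKO library 3 of 9 were, since Aldh3a2 joined them at 0.257 (0.331 in the control), beside 12.3% of all genes. In the other direction, Aldh7a1 was 2.10 times its Sertoli level in the control and 2.44 times in the Brca1 vKO library, and passed the fold only in the latter, beside 12.9% and 13.1% of genes past 2-fold higher. Esd was 1.33 and 1.25 times, Aldh9a1 1.55 and 1.20 times, Adh5 0.579 and 0.539 times, and Akr1a1 0.542 and 0.699 times its Sertoli level. Against stromal and myoid cells Aldh2 in germ cells was between 0.220 and 0.290, and against Leydig cells it was 0.125 in the control, against 0.219 in the Brca1 vKO library.

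Free RNA and doublets can bring somatic transcripts into germ barcodes. Scrublet called 10.4% of control and 12.3% of Brca1 vKO germ cells doublets, against at most 2.2% in the other classes. The summed level of 4 Sertoli markers in germ cells was 5.97% of their Sertoli level in the control, against 5.12% in the Brca1 vKO library, and none of the 4 was at 0. Single markers lay between 4.91% and 6.68%. Aldh2, at 22.02% and 32.4%, lay above all of them. Among the germ cells with the fewest somatic marker UMIs, 335 control and 110 Brca1 vKO cells up to the median of their library, Clu, a Sertoli marker, was at 0.643% and 1.53% of its Sertoli level. The 4 Sertoli markers were among the markers used to choose these cells, so their fall was set by the choice and does not measure the foreign RNA left. Aldh2 in these cells was at 17.7% and 26.3% of its Sertoli level, or 39.3 and 57.6 CPM. Aldh1b1 dropped to 4.21% and 6.65%, or 0.947 and 1.57 CPM, and so most of its UMIs in germ barcodes were in those with more somatic marker UMIs. Esd, Adh5, Akr1a1 and Aldh7a1 in these cells stood at 131.6%, 53.6%, 54.1% and 236% of their Sertoli levels in the control. This choice of cells was made after the data were seen.

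**Figure D3:**
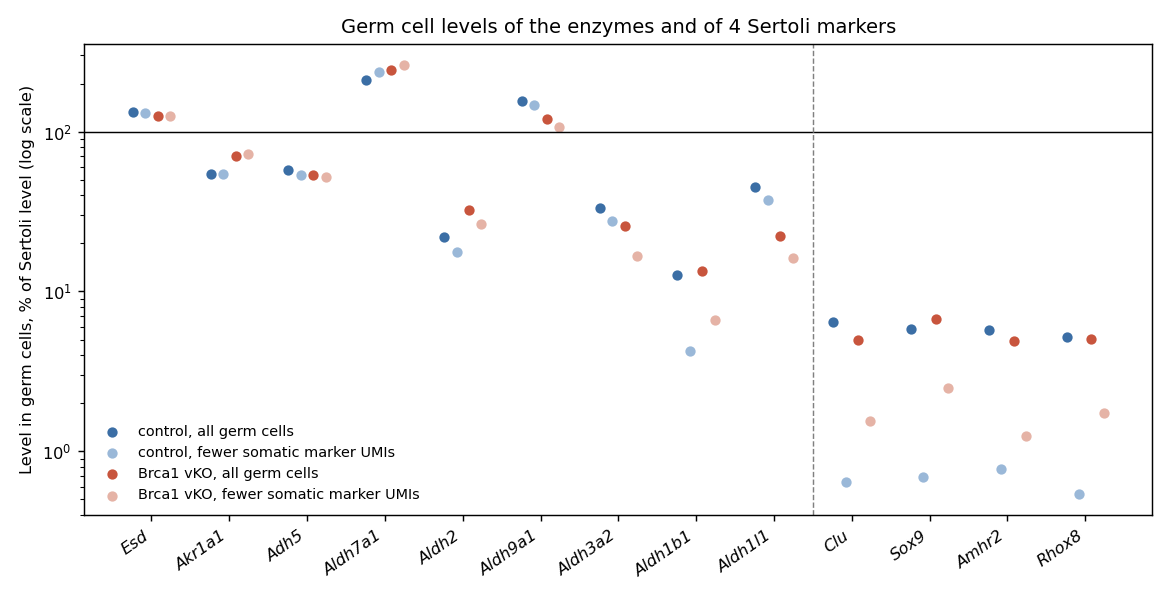
Level in germ cells as a percentage of the level in Sertoli cells (log axis) for the 9 enzymes and, right of the dashed line, 4 Sertoli markers, over all germ cells (dark points) and those up to their library's median of somatic marker UMIs (pale points). The markers lay between 4.91% and 6.68% over all germ cells and between 0.539% and 2.49% in the second set. They were among the markers used to choose that set, so their fall was set by the choice. Aldh2 went from 22.02% to 17.7% in the control and from 32.4% to 26.3% in the Brca1 vKO library.

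Shares of cells gave a weaker picture of Aldh2. When each cell was thinned to 5000 UMIs, Aldh2 had a UMI in 20.6% of control and 31.8% of Brca1 vKO germ cells. Clu, which marks Sertoli cells, had one in 19.1% and 30.9% of the same cells, so these shares do not separate Aldh2 from background. The unthinned shares for Aldh2 were 76.6% and 85.9%. Esd was detected in 70.0% and 67.7% of thinned germ cells, Akr1a1 in 46.8% and 50.7%, and Adh5 in 41.3% and 39.2%. In thinned Sertoli cells Aldh2 was detected in 66.9% of both libraries, and Dazl, a germ cell marker, in 3.67% and 1.31%. Thinning left out 1 control and 3 Brca1 vKO germ cells that were too shallow.

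Leydig cells were compared with Sertoli cells in the same way, and 4 enzymes were higher in them. Aldh1b1 stood at 74.8 and 81.5 CPM there against 22.5 and 23.6 CPM in Sertoli cells, a ratio of 3.33 (2.61 to 4.18) in the control, against 3.46 (2.98 to 3.99) in the Brca1 vKO library. Aldh1l1 was at 19.9 and 34.0 CPM against 4.38 and 5.57 CPM, ratios of 4.54 and 6.11. Aldh7a1 was 3.02 and 2.80 times and Aldh9a1 2.80 and 2.81 times its Sertoli level. These 4 of the 9 enzymes were past 2-fold higher in both libraries, beside 6.59% of genes in the control, against 7.16% in the Brca1 vKO library. Aldh2 was 1.76 and 1.48 times and Adh5 1.52 and 1.21 times its Sertoli level, and neither passed the fold. Aldh3a2 was at 36.9 and 25.8 CPM in Leydig cells, 1.26 and 0.909 times its Sertoli level. Aldh7a1 was not highest in Leydig cells alone, since it was at 93.9 CPM (87.2 to 101.0) in myoid and 95.7 CPM (77.9 to 116) in Leydig cells of the control. The Leydig barcodes also held Sertoli markers at 26.9% and 17.5% and stromal markers at 12.6% and 22.1% of the levels in those classes, and the part of this RNA in the Leydig values was not tested.

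Within Sertoli cells, the cluster led by proliferation genes (Hist1h1b, Ube2c and Cdk1) had 28.9 CPM of Aldh1b1 against 18.9 CPM in the other Sertoli cluster in the control, and 28.8 against 20.002 CPM in the Brca1 vKO library. Aldh2 was lower in the cluster led by proliferation genes, at 182 against 244 CPM in the control and 192 against 238 CPM in the Brca1 vKO library. In stromal cells the cluster led by Pclaf, Tubb6, Mxd3 and Hist1h1b had 145 CPM of Aldh2 against 234 CPM in the other cluster in the control, and 176 against 260.0 CPM in the Brca1 vKO library. Aldh2 in the stromal cells of the control was the 1 member past 1.5-fold in these comparisons, beside 15.1% of genes there. The shares of genes past 1.5-fold were 13.7% in the stromal cells of the Brca1 vKO library, and 4.66% and 3.14% in control and Brca1 vKO Sertoli cells. The lower levels were not particular to Aldh2, since 7 or 8 of the 9 enzymes had ratios below 1 in each comparison. In control and Brca1 vKO Sertoli cells the median log2 ratio of the enzymes was −0.18 and −0.12, against 0.019 and 0.011 over all genes tested. In stromal cells it was −0.13 and −0.18, against −0.0037 and 0.0094. The sum of the 9 was at 0.844 and 0.862 times in Sertoli cells and at 0.835 and 0.8302 times in stromal cells. The clusters were drawn from the same cells, so these values are a description.

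Germ cells were split by the receptors Gfra1 and Ret, which mark spermatogonial stem cells, and by Kit and Stra8, which mark differentiating spermatogonia. The GFRA1/RET cells were 336 of 670 germ cells, or 50.1% (46.3 to 54.0), in the control and 190 of 220, or 86.4% (81.1 to 90.6), in the Brca1 vKO library. The KIT/STRA8 cells were 236, or 35.2%, and 7, or 3.18% (1.29 to 6.45). Aldh9a1 was at 34.5 CPM (31.7 to 37.5) in control GFRA1/RET cells and at 64.4 CPM (60.0 to 69.0) in control KIT/STRA8 cells, 1.87 times (1.67 to 2.08) higher. Aldh7a1 went the other way, from 80.1 CPM (75.8 to 84.5) to 46.9 CPM (43.2 to 50.9), a ratio of 0.586 (0.530 to 0.646). These 2 of 9 enzymes were past 1.5-fold, beside 11.2% of all genes tested in that comparison. RNA of other cell types was also higher in the control KIT/STRA8 cells: the summed markers were at 278 against 193 CPM for Sertoli, 149.9 against 72.7 CPM for stromal, 146 against 87.5 CPM for myoid and 46.7 against 6.07 CPM for Leydig cells, and doublet calls were 11.9% against 8.33%. Without the doublets the log2 ratio, with 10 CPM added, was 0.77 for Aldh9a1 and −0.65 for Aldh7a1, against 0.74 and −0.66 with them. In the germ cells up to the median of somatic marker UMIs it was 0.78 and −0.61.

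The other enzymes differed less along this axis. Akr1a1 was at 145 CPM in GFRA1/RET and 110.1 CPM in KIT/STRA8 cells of the control, a ratio of 0.758 (0.709 to 0.810). Esd was at 237 and 269.5 CPM and Adh5 at 94.3 and 105 CPM, ratios of 1.14 and 1.12. Aldh2 was at 49.3 and 44.1 CPM, a ratio of 0.894 (0.8003 to 0.997). The sum over the 9 enzymes was nearly the same, with a ratio of 1.002 (0.973 to 1.03). In the Brca1 vKO library, where KIT/STRA8 rests on 7 cells, Aldh9a1 was 1.81 times (1.06 to 2.92) and Aldh7a1 0.449 times (0.223 to 0.809) the GFRA1/RET level. Aldh1b1 and Aldh1l1 had no UMI in those 7 cells, where a limit of 3 counts corresponds to 9.71 CPM and the exact interval reaches 11.9 CPM.

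**Figure D4:**
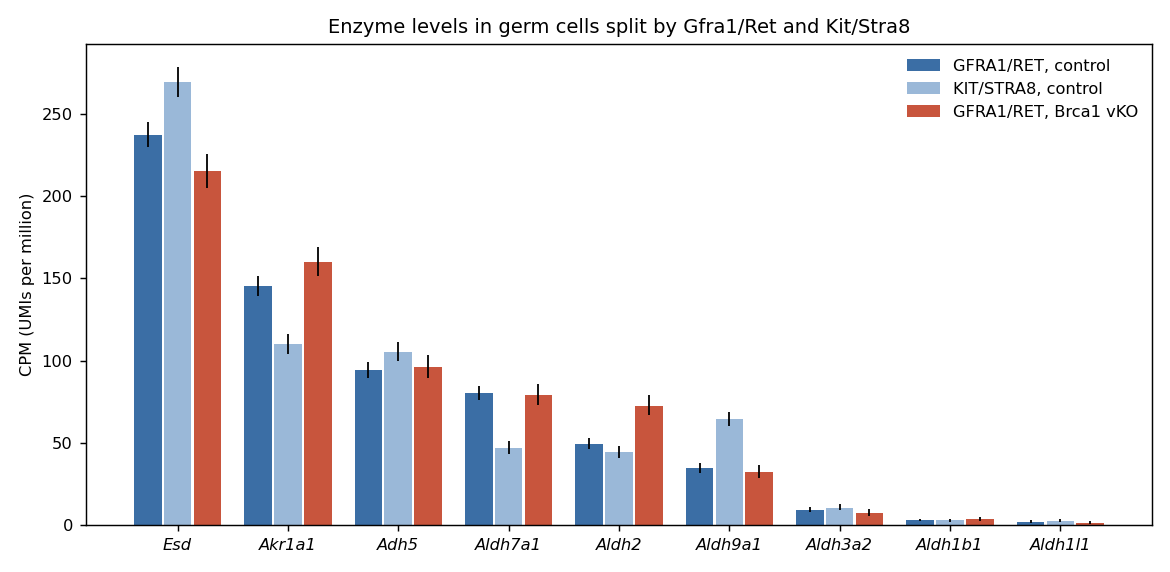
Level of each enzyme (CPM, from 0) with 95% Poisson counting intervals. Bars are for control GFRA1/RET, control KIT/STRA8 and Brca1 vKO GFRA1/RET germ cells. In the control, Aldh9a1 is higher in KIT/STRA8 cells (64.4 against 34.5 CPM) and Aldh7a1 is lower (46.9 against 80.1 CPM). The 7 Brca1 vKO KIT/STRA8 cells are not drawn.

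Between the libraries, none of the 9 enzymes in germ cells was past 1.5-fold, beside 6.01% of the 13156 genes tested, and 8 of the 9 had enough UMIs to count. The summed level was 1.02 times (0.994 to 1.05) the control. The nearest was Aldh2, at 1.46 times (1.33 to 1.60) the control level. Akr1a1 was at 1.20 times (1.13 to 1.27) and Aldh7a1 at 1.16 times (1.07 to 1.27), while Adh5 was at 1.012 times (0.939 to 1.09). Esd was at 0.881 times (0.838 to 0.926), Aldh9a1 at 0.723 times (0.636 to 0.819) and Aldh3a2 at 0.756 times (0.569 to 0.989). For Aldh1b1 and Aldh1l1, with 28 and 11 UMIs in Brca1 vKO germ cells, the intervals ran from 0.693 to 1.69 and from 0.297 to 1.19.

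The make-up of the germ cells differed between the libraries, so the ratios were also taken within GFRA1/RET cells, a choice made after the data were seen. These cells still differed between the libraries. Kit was at 7.61 CPM in the control and 29.6 CPM in the Brca1 vKO library, and the germ marker Zbtb16 at 365 and 211 CPM. Gfra1 was at 298 and 354 CPM, Ret at 124 and 126 CPM and Stra8 at 29.5 and 22.1 CPM. Within GFRA1/RET cells Aldh9a1 was at 0.932 times (0.799 to 1.08) and Aldh7a1 at 0.990 times (0.898 to 1.09) the control, both with intervals that include 1. Aldh2 remained at 1.47 times (1.32 to 1.64), from 49.3 to 72.7 CPM, Esd at 0.906 times (0.855 to 0.960) and Akr1a1 at 1.10 times (1.03 to 1.18). None was past 1.5-fold, beside 5.71% of genes. Sertoli markers in GFRA1/RET cells summed to 193 CPM in the control and 237 CPM in the Brca1 vKO library. Stromal markers there were at 72.7 and 117 CPM, myoid markers at 87.5 and 114 CPM and Leydig markers at 6.07 and 7.49 CPM. Doublet calls were 8.33% and 13.2%. The germ cells up to the median of somatic marker UMIs held these markers at 76.2 and 139 CPM, and Aldh2 there was at 1.47 times (1.26 to 1.70). With 1 limit of these UMIs for both libraries, which left 335 control and 36 Brca1 vKO cells and Clu at 16.0 and 20.4 CPM, it was at 1.42 times (1.10 to 1.81). In the low-UMI germ barcodes, Aldh2 was at 1.52 times (0.977 to 2.28).

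In somatic cells, too, no enzyme was past 1.5-fold in Sertoli cells (beside 0.276% of genes), stromal cells (0.354%), myoid cells (0.652%) or Leydig cells (7.02%). In Sertoli cells the ratios ran from 0.929 for Akr1a1 to 1.27 (1.09 to 1.48) for Aldh1l1, and Aldh2 was at 0.988 times (0.966 to 1.0103) the control. Aldh2 was at 1.13 times (1.09 to 1.19) in stromal and 1.20 times (1.13 to 1.27) in myoid cells but at 0.829 times (0.735 to 0.937) in Leydig cells. Aldh7a1 in myoid cells was at 0.829 times (0.754 to 0.910). Aldh1l1 in Leydig cells had the largest ratio of any member in the 5 classes, 1.71 (1.05 to 2.91), on 21 and 83 UMIs, and its log2 ratio with the added 10 CPM was 0.56. With 1 mouse per genotype, a difference between these mice and a difference between the genotypes cannot be told apart.

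**Figure D5:**
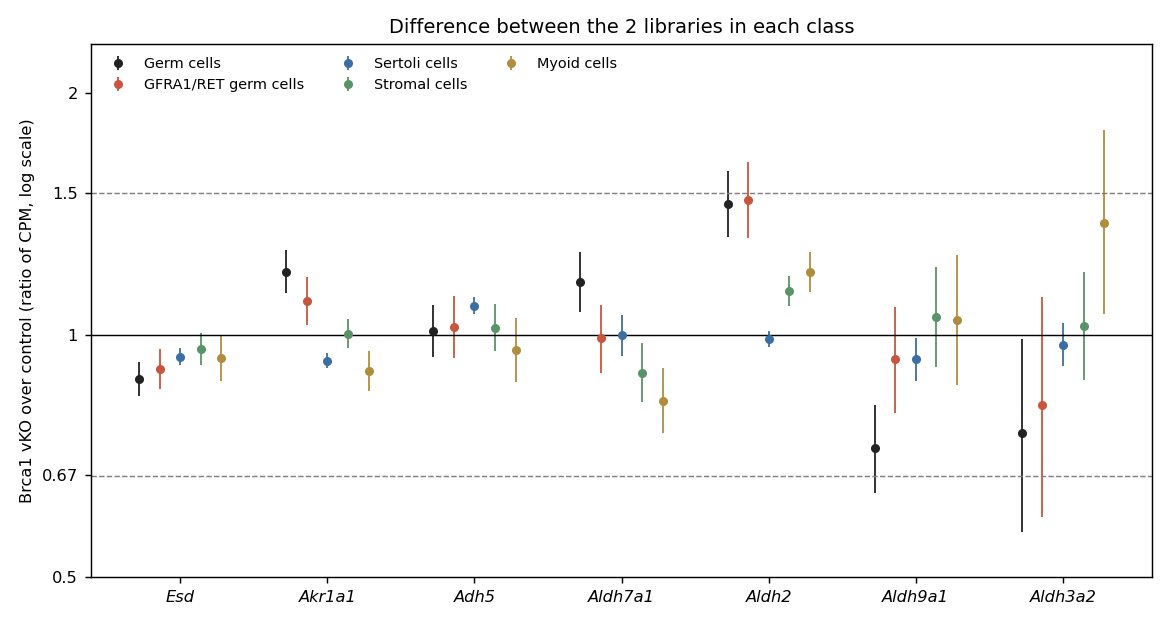
Ratio of Brca1 vKO to control level (log axis) for the 7 more abundant enzymes, with 95% counting intervals and a line at 1. Points are for all germ cells, GFRA1/RET germ cells, and Sertoli, stromal and myoid cells, and Leydig cells are not drawn. Aldh2 lies at 1.46 in germ cells, 0.988 in Sertoli cells and 1.20 in myoid cells.

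Genes around these enzymes were read from 5 lists. Of 8 genes of glutathione metabolism, 7 could be tested. Their median log2 ratio of germ over Sertoli cells was 1.44 in the control, against 0.13 over all genes. In germ cells 4 of them were past 2-fold higher than in Sertoli cells in both libraries, beside 12.9% and 13.1% of all genes. These were Gclc and Gclm, the subunits of the rate-limiting enzyme of glutathione synthesis, Gsr, which reduces oxidised glutathione, and Ggct. In the control Gsr was at 296 CPM in germ and 95.9 CPM in Sertoli cells, Gclm at 213 and 53.9 CPM, Gclc at 125 and 29.4 CPM, and Ggct at 68.4 and 18.8 CPM. Gclc and Ggct were named after their values were seen. Between the libraries none of the 7 was past 1.5-fold in germ cells, beside 6.01% of all genes tested. The list's median log2 ratio was −0.20 against −0.03 over all genes, with Gsr at 239 CPM in the Brca1 vKO library.

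Of 16 folate enzymes, 12 could be tested between the libraries in germ cells, and 2 were past 1.5-fold higher in the Brca1 vKO library, where 6.01% of all genes were past that fold in either direction. Shmt2, the mitochondrial serine hydroxymethyltransferase, was at 38.7 CPM in the control and 79.0 CPM in the Brca1 vKO library, 2.04 times (1.86 to 2.24) higher. Gldc, of the glycine cleavage system, was at 9.61 and 22.3 CPM. Within GFRA1/RET cells the ratios were 2.09 and 2.01. The most abundant of the list were Shmt1 at 105 and 116 CPM and Mthfd2 at 99.4 and 73.8 CPM.

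Among 14 other aldehyde dehydrogenases, 8 could be tested, and 2 enzymes that make retinoic acid differed in opposite directions past 1.5-fold, beside the same 6.01% of all genes: Aldh1a3 was at 5.95 and 18.4 CPM and Aldh1a2 at 18.8 and 6.41 CPM in control and Brca1 vKO germ cells. Within GFRA1/RET cells their ratios were 2.09 and 0.385. The most abundant of this list were Aldh1a1, at 51.4 and 58.2 CPM, and Aldh16a1, at 26.3 and 27.3 CPM. Aldh1a1 was at 937 and 936 CPM in Sertoli cells, so that its germ level was 0.0549 and 0.0622 of the Sertoli level, a share like that of the Sertoli markers. Among 15 reductases, 9 could be tested and 2 were past 1.5-fold, beside 6.01% of all genes, with Cbr3 higher (6.25 and 16.4 CPM) and Akr1b3, aldose reductase, lower in the Brca1 vKO library (247 and 121 CPM, ratio 0.492). Within GFRA1/RET cells Akr1b3 was at 0.522 times the control, and Cbr3 was at 9.08 CPM in the control and 17.7 CPM in the Brca1 vKO library, 1.95 times (1.53 to 2.47), which missed the fold once 10 CPM was added to each level. Akr1b3 was at 680.1 and 543 CPM in Sertoli cells, and Akr7a5, the next in germ cells, stood at 96.3 and 71.3 CPM. Of 25 demethylases, which release formaldehyde, 24 could be tested and none was past 1.5-fold, beside 6.01% of all genes. The median log2 ratio of the demethylases was −0.08, and the most abundant were Kdm5b at 348 and 323 CPM and Jmjd1c at 284 and 315 CPM.

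Over the 10 sums of class and library, the genes whose log2 levels followed Aldh2 most closely were Plekhm2 (Pearson r = 0.989), Creg1 (0.988) and Mcee (0.986), among 10076 genes. For Adh5 they were Slc37a2 (0.992), Gm2044 (0.991) and Folr1 (0.987). Among the members, Aldh2 followed Akr1a1 (r = 0.964) and Aldh1b1 followed Aldh1l1 (0.912), while Aldh2 and Esd ran in opposite directions (−0.881). The 10 points come from 2 libraries and share their depth, so these values are descriptions.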

How the data were processed

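The deposited tables are counts of UMIs per gene and barcode, not normalized, which the authors made from PD7 testes, digested and loaded on the 10x Genomics Chromium platform, with Cell Ranger 6.0.2 on mm10. The totals were 120568700 UMIs in 5812 control and 165062097 in 9456 Brca1 vKO barcodes. Following the study's methods, cells below 750 genes or above 10% mitochondrial UMIs were dropped. In Seurat 5.3.0 (R 4.3.3), 2000 variable genes without the enzymes and pathway lists gave 20 principal components, with the library effect removed by a re-implementation of Harmony, and cells were clustered with 20 neighbours at a resolution of 0.25. Cell types annotated by the authors were not used here. Clusters were named from 4 markers per class, and low-UMI clusters led by other genes stayed unnamed. Germ cells were split by their own UMIs (at least 3 of Gfra1, Ret, Kit and Stra8, and most of them from one pair). Doublets were called with Scrublet (scanpy 1.11.5) and kept.

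UMIs of a class and library were added up and scaled to CPM by their total, with exact Poisson, conditional binomial and Clopper-Pearson intervals (scipy 1.17.1). Log2 ratios used a pseudocount of 10 CPM and were read for genes with 100 or more UMIs over the sums compared. Intervals cover counting error only. The fold and interval code was tested on simulated data. Named genes are the 9 members, the 2 most abundant genes of each list in control germ cells, list genes past 1.5-fold, and the 3 genes most like Aldh2 and Adh5. The members, lists and rules were chosen with earlier results of these data known. Transcript lengths are those of GENCODE vM21 (GRCm38), and similar transcripts were found with blastn 2.17.0. Alternatives changed the filters, clustering, doublets, class definitions, weighting, scaling (edgeR 4.0.16 TMM), pseudocount and fold, and further ones were added after seeing the data.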

Additional observations from a re-analysis of the deposited data

How the results depend on the processing

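No paired analysis was possible because each genotype had 1 library, and for the same reason no library could be left out. Of 416 values recomputed under 17 settings, 359 stayed within the counting interval of the main value or within 1.5 times a main count, 57 moved further, and none that was past a fold changed direction. No enzyme was past 1.5-fold between the libraries in germ or Sertoli cells under any setting run. The summed level in control germ cells (656 CPM) was 729.8 with a mitochondrial limit of 5%, 644 without doublets, 702 with germ cells taken by Ddx4 and Dazl UMIs, 673 with low-UMI clusters added, 696 without mitochondrial and haemoglobin UMIs, and 639 in germ cells up to the median of somatic marker UMIs. The 5% limit drew the low-UMI germ barcodes into the germ class and also removed many of its deeper cells. A germ cluster with medians of 3433 and 3657 UMIs then held 386 control and 52 Brca1 vKO cells. The deeper germ cluster held 204 and 51 cells, against 670 and 220 in the main setting. The log2 ratio of the sum, Brca1 vKO over control, in germ cells (0.03) was −0.040 with the 5% limit and 0.093 with TMM, and in Sertoli cells (−0.03) it was 0.0072 with the 5% limit and −0.0058 with cells weighted equally. Germ over Sertoli (−0.52) was −0.32 with the 5% limit, −0.55 without doublets, −0.43 with Ddx4 and Dazl, −0.59 with equal weights and −0.56 in the cells up to the median of somatic markers. KIT/STRA8 over GFRA1/RET (0.0026) was 0.058, 0.045 and −0.042 with the 5% limit, Ddx4 and Dazl, and equal weights. Aldh2 between the libraries in germ cells ranged from 0.28 to 0.56 on the log2 scale around 0.46. Apart from the effect of the 5% limit on class membership, the cause was not tested. The cells up to the median of somatic markers and the removal of shared barcodes were added after seeing the data. Depth limits Aldh1b1 and Aldh1l1 in germ cells and all values in the 7 Brca1 vKO KIT/STRA8 cells.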

Other observations

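Sertoli cells of the Brca1 vKO library held 1859 UMIs of Aldh1a2, an enzyme of retinoic acid synthesis, at 18.3 CPM, against 92 UMIs and 1.69 CPM in the control, a ratio of 10.8 (8.74 to 13.4). In germ cells the same gene was at 6.41 CPM in the Brca1 vKO library and 18.8 CPM in the control, the opposite direction. Each value comes from 1 mouse, and a difference between the mice and one between the genotypes cannot be told apart.

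Leydig cells held further aldehyde and alcohol dehydrogenases that were rare in the other classes. Aldh3a1 was at 128 and 168 CPM and Adh1 at 311 and 393 CPM in control and Brca1 vKO Leydig cells, while in Sertoli cells Aldh3a1 was at 0.147 and 0.285 CPM and Adh1 at 4.64 and 6.87 CPM. These genes were named after their values were seen.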
